A study of Mus musculus with 20 samples.

Results

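Kap1 peaks at start sites are the narrow peaks that the Kap1 lists of young and old mouse liver held beside the first base of a transcript. A peak was taken when it lay on chromosomes 1 to 19, was under 500 bp wide and came within 1 kb of a transcript start site of the GENCODE basic annotation of GRCm38 (mm10). The rule used positions only and found 3062 of the 48915 peaks of the young list and 1259 of the 22141 peaks of the old list. The livers came from wild-type C57BL/6 male mice, young at 3 months and old at 21 months, with no treatment named for either age. Chromatin was immunoprecipitated with an antibody to Kap1, H3K14ac (histone H3 acetylated at lysine 14) or Setdb1 and sequenced (ChIP-Seq), and 1 list of peaks per mark and age was available, made from the merged reads of 2 livers per age for Kap1 and of 3 livers per age for H3K14ac and Setdb1. Whole liver holds mostly hepatocytes and also endothelial, stellate, immune and bile duct cells, and a peak list does not say in which of them the factor was bound. A list gives the position of each peak and no height, so no spread between livers, depth or test between ages can be given, and fewer peaks in a list cannot be told apart from less sequencing or a weaker immunoprecipitation. Intervals in brackets are 95% Wilson intervals of a share and cover counting error only.

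Kap1, the product of the Trim28 gene, is a corepressor that does not bind DNA by itself and is brought to the genome by KRAB zinc finger proteins, each of which reads its own sequence. On chromatin it gathers Setdb1, a methyltransferase that trimethylates lysine 9 of histone H3, together with histone deacetylases and HP1 proteins. It is best known for silencing transposable elements, for protecting methylation at imprinted genes, and for sitting on the clustered zinc finger genes themselves. H3K14ac is a mark of active start sites, and the tudor domains of Setdb1 can recognise it beside methylated lysine 9.

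The sequences of a few of these peaks show what the positions stand for. They were read from GRCm38 on the plus strand, none overlaps an annotated UTR, and all are given 5′ to 3′. The first pair lay at protein-coding start sites in both Kap1 lists, and capitals mark the bases shared with the peak of the other age. The peak at 9530002B09Rik was chr4:122689774-122689923 in young liver, and the peak at Litaf, the gene of a lysosomal membrane adaptor, was chr16:10975025-10975235.
9530002B09Rik, young: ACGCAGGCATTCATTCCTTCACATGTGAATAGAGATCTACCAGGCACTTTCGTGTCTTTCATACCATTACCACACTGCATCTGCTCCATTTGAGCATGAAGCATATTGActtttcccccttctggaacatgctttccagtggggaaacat
Litaf, young: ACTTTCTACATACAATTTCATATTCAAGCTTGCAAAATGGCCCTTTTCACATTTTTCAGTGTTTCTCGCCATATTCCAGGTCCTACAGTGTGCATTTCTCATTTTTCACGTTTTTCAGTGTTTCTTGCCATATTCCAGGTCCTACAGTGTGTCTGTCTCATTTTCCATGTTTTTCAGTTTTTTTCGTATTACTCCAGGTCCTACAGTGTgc
The peak at AW822073 in young liver (chr10:58223871-58224147) is shown because it was the 1 young start-site peak at a protein-coding gene that met both an H3K14ac and a Setdb1 peak of its own age, and here capitals mark the bases shared with the Setdb1 peak.
AW822073, young: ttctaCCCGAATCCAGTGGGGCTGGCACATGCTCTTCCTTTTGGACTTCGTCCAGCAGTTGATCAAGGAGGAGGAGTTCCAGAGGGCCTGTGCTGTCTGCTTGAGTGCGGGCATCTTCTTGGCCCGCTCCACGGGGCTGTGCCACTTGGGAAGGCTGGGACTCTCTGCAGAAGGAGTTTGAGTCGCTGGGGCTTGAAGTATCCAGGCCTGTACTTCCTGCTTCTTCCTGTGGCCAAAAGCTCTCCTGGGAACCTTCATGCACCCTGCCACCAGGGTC
A pair of old peaks overlapped microRNA hairpins on the minus strand, Mir34b (peak chr9:51103590-51103739) and Mir344g (peak chr7:61982279-61982428), and capitals mark the mature microRNAs that lie whole inside the peak.
Mir34b, old: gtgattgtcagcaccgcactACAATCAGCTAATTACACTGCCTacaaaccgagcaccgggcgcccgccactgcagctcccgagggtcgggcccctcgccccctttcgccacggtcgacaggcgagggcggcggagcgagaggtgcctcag
Mir344g, old: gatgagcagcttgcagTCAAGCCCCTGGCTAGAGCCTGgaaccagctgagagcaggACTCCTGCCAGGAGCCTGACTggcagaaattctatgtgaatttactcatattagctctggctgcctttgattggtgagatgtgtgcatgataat
The arm inside the Mir34b peak is mmu-miR-34b-5p, given here from RefSeq (GRCm38.p6) with its seed, bases 2 to 8, in capitals.
mmu-miR-34b-5p: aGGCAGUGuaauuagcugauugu
The last 3 were peaks of the young list with no second copy in the genome, with capitals for CpG dinucleotides, of which they held 17, 3 and 2. They lay at Nap1l5 (chr6:58906789-58906938), an imprinted gene of the nucleosome assembly protein family, at Grb10 (chr11:12028034-12028183), an imprinted adaptor of insulin receptor signalling, and at Hnf4g (chr3:3507597-3507746), a nuclear receptor related to the liver factor Hnf4a.
Nap1l5, young: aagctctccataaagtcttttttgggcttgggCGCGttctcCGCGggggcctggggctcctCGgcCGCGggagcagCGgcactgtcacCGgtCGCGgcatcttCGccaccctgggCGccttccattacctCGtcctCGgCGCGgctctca
Grb10, young: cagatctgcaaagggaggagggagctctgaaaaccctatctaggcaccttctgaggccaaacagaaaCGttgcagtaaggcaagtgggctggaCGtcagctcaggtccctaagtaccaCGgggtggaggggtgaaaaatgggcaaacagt
Hnf4g, young: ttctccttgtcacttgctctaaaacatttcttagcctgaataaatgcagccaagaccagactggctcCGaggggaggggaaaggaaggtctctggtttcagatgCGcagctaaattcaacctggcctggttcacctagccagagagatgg

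Start-site peaks were a small part of the narrow Kap1 peaks at both ages. The share of the genome within 1 kb of a start was not computed, so the shares have no genomic reference. Of the narrow peaks on chromosomes 1 to 19, 3062 of 45764 (6.69%) were at start sites in young and 1259 of 20587 (6.12%) in old liver. The old list held 41.1% as many of them as the young list, against 45.3% for narrow peaks away from start sites, and this difference between ages was not tested. Most were of 1 width, since 2664 (87%) of the young and 1053 (83.6%) of the old were exactly 150 bp wide. Peaks of 500 bp or more beside start sites, which the rule left out, numbered 199 in young and 120 in old liver. At the distance limit there was no drop in number, with 212 young peaks in the last 100 bp inside it and 216 narrow peaks in the first 100 bp beyond it. In old liver these counts were 90 and 111.

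The peaks gathered around the nearest start, slightly to its transcribed side. Where several starts lay in the window the nearest was taken, which by itself shortens distances, and its part was not tested. The midpoint lay downstream of the nearest start in 1733 of 3062 young peaks (56.6%, 54.8% to 58.3%) and in 701 of 1259 old peaks (55.7%, 52.9% to 58.4%). With peaks taken within 2000 bp of a start the downstream shares were 54.3% in young and 52.6% in old liver, below these intervals. The densest 100 bp were the first downstream of the start in young liver, with 240 peaks (7.84%), and the second in old liver, with 106 peaks (8.42%). The thinnest 100 bp held 3.14% and 2.7%. A start was covered by 388 young peaks (12.7%, 11.5% to 13.9%) and 161 old peaks (12.8%, 11.1% to 14.7%), and the median distance of the midpoint from the start was 448 bp and 405 bp. H3K14ac peaks in the same window, taken at any width, were more concentrated. The second 100 bp downstream held 15.9% of the young and 19% of the old. By annotation 44.7% of the young members touched an exon, 27% lay in introns and 28.3% between genes, and for the old members these shares were 44.3%, 24.3% and 31.4%.

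**Figure D1:**
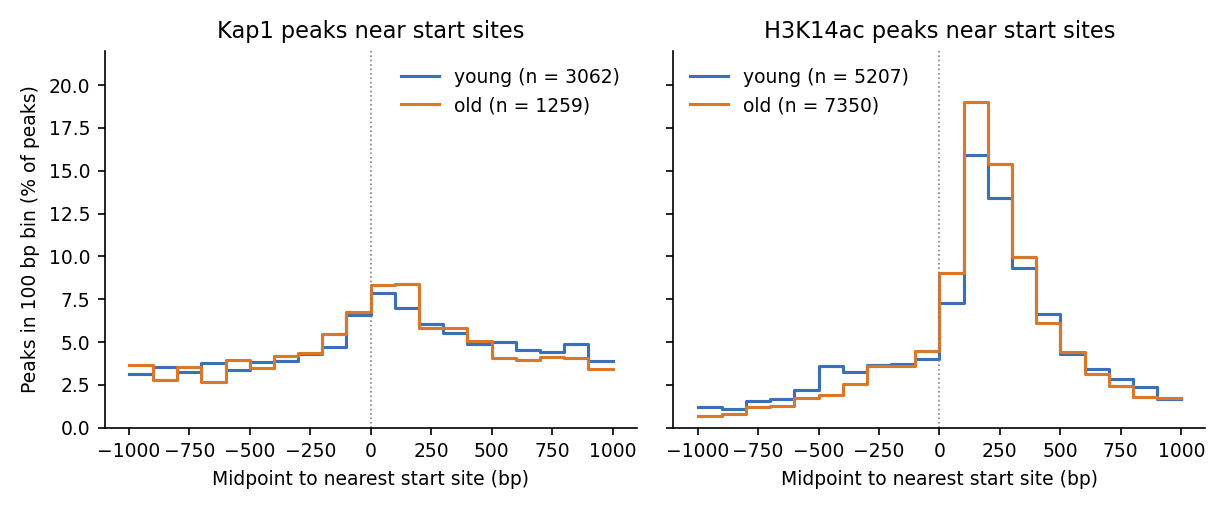
Share of peaks (y axis, % of the peaks in the window) in each 100 bp bin of distance from peak midpoint to the nearest start site (x axis, bp, positive values downstream). Kap1 peaks under 500 bp wide are on the left and H3K14ac peaks of any width on the right, young in blue and old in orange. Kap1 reached 7.84% and 8.42% in its densest bins and H3K14ac 15.9% and 19%.

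Start sites of all kinds of genes were counted alike, and 2814 of 51229 genes (5.49%) had a start-site peak in young liver and 1208 (2.36%) in old liver. These shares are the background against which each gene group below is read. Both ages had a peak at 437 genes (0.853% of all genes), which were 15.5% of the young and 36.2% of the old genes, and at 210 pairs of peaks the young and old peaks shared bases. Most genes had a single peak, 2459 of the young genes (87.4%) and 1113 of the old (92.1%). Protein-coding genes stood close to the background, at 5.26% (4.97% to 5.57%) in young and 2.2% (2.01% to 2.41%) in old liver. They were 20807 of the 51229 genes and held 39599 of the 72109 start sites, and shares per gene were not adjusted for this. Segments of the immunoglobulin and T cell receptor loci, which lymphocytes rearrange to build their receptors, were at 15.1% (106 of 702, 12.6% to 17.9%) and 6.7% (47 of 702). Unprocessed and unitary pseudogenes, inactive genes that arose without reverse transcription, were at 11.7% (256 of 2193, 10.4% to 13.1%) and 6.06% (133 of 2193). Processed pseudogenes, which arise by reverse transcription of a messenger RNA, were at 7.05% and 3.23%. Long non-coding RNA genes were below the background at both ages, at 3.74% (3.38% to 4.15%) and 1.37% (1.15% to 1.62%). The order of the 4 groups just named, receptor segments highest and long non-coding RNAs lowest, was the same in both lists, while the intervals of receptor segments and of unprocessed and unitary pseudogenes overlapped.

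**Figure D2:**
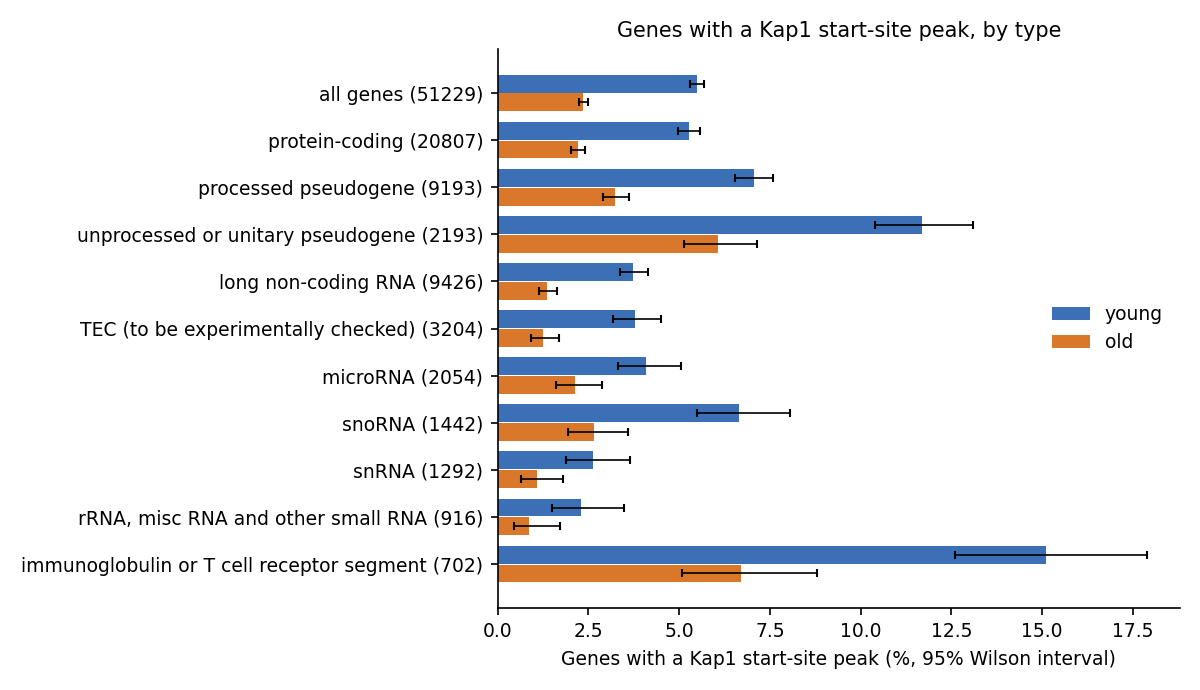
Share of genes with at least 1 Kap1 start-site peak (x axis, %) by GENCODE gene type (y axis, number of genes in brackets), young in blue and old in orange, with 95% Wilson intervals as bars. Receptor segments reached 15.1% and 6.7% and long non-coding RNAs 3.74% and 1.37%, against 5.49% and 2.36% of all genes.

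Among protein-coding families, the chemosensory receptors stood far above the background in both lists. Olfactory receptors, which detect odours in the nose and sit in large tandem clusters, had a peak at 169 of 1101 genes in young liver (15.3%, 13.3% to 17.6%) and at 64 in old liver (5.81%, 4.58% to 7.35%). Vomeronasal receptors of type 1, which detect pheromones, had one at 38 of 207 genes (18.4%, 13.7% to 24.2%) and 21 (10.1%, 6.73% to 15%). Vomeronasal receptors of type 2 had one at 15 of 120 genes (12.5%) and 9 (7.5%). All 3 groups taken as 1 list gave 222 of 1428 genes in young, 94 in old and 35 at both ages. H3K14ac was at the start of 3.92% of the listed genes in young and 3.15% in old liver. These shares stood against 10.4% and 14.4% of all genes, and 19% and 27.6% of protein-coding ones. The peaks nearest a receptor start included Vmn1r125 in young liver, with the midpoint 1 bp downstream, and Vmn2r3, 22 bp downstream. In old liver they included Olfr65 at 1 bp and Olfr632 and Vmn1r204 at 7 bp. None of these 5 peaks met a Kap1 peak of the other age or an H3K14ac or Setdb1 peak of its own age.

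Zinc finger genes, the group Kap1 is known to sit on, were close to the background here, with 20 of 424 genes in young (4.72%, 3.07% to 7.17%) and 11 in old liver (2.59%, 1.45% to 4.59%), 6 of them at both ages. The 4 old zinc finger peaks nearest a start were all in 1 cluster on chromosome 4, at Zfp988, Zfp984, Zfp985 and Zfp982. The old peak at Zfp988 (chr4:147305570-147305745) had its midpoint 16 bp upstream of the start and shared all its 176 bp with the young peak and with an old H3K14ac peak. The old peak at Zfp985 (chr4:147553077-147553299) likewise shared all its 223 bp with a young Kap1 peak and with an old H3K14ac peak. The old peak at Zfp984 (chr4:147775749-147776040) shared 138 bp with a young Kap1 peak and 177 bp with an old Setdb1 peak. Among the nearest young peaks, Zfp287 and Zscan18 lay outside this cluster and had no partner in the old Kap1 list. Counts that only take zinc finger names also take genes without a KRAB domain, and Kap1 at the 3′ ends of these genes falls outside a start-site rule. The width limit also left out Kap1 peaks of 500 bp or more. These lay at starts of 4 of the 424 genes in young and 3 in old liver, against 189 and 122 of all 51229 genes.

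The gene lists in this paragraph held no Kap1 start-site peak at either age. Their intervals included the background, apart from those of the cytosolic ribosomal and the histone genes in young liver. None of the 10 hepatocyte markers (Alb, Apoa1, Apob, Ttr, Pck1 and others, upper Wilson bound 27.8%) had one at either age, none of the 17 liver transcription factor genes (18.4%), 16 apolipoprotein genes (19.4%), 46 cholesterol and triglyceride genes (7.71%), 48 complement and coagulation genes (7.41%), 21 clock genes (15.5%), 85 cytosolic ribosomal protein genes (4.32%) or 70 histone genes (5.2%). Among these 8 lists the upper bound lay under the young background of 5.49% only for the cytosolic ribosomal and the histone genes, and under the old background of 2.36% for none. The nearest Kap1 peak to a start of Alb was 69682 bp away in young and 146089 bp in old liver. For Apoa1 it was 106192 bp and 135278 bp. An H3K14ac peak lay within 1 kb of a start of 5 of the 10 hepatocyte markers in young and 4 in old liver, among them Apoa1, Apob and Pck1 at both ages, against 19% and 27.6% of all protein-coding genes. Of the 17 markers of other liver cells, 0 had Kap1, and 2 (Dcn and Reln) in young and 1 (Sox9) in old liver had H3K14ac, while Krt19 and Pecam1 had a Setdb1 peak in young liver, as did 842 of all 20807 protein-coding genes (250 in old liver). The 21 genes of the Kap1 and Setdb1 complexes had 0 Kap1 and 0 Setdb1 start-site peaks at both ages, Trim28 and Setdb1 included, and the upper bound of 15.5% for 0 of 21 genes lay above the Kap1 background at both ages. H3K14ac was at 9 of the 21 genes in young (42.9%) and 13 in old liver (61.9%), beside the shares of 19% and 27.6% of protein-coding genes. The nearest Kap1 peak to a Trim28 start was 19134 bp away in the young list and 19395 bp in the old, and to a Setdb1 start 54492 bp and 357932 bp.

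Among the metabolic and imprinted lists that held members, the young shares had intervals that included the young background of 5.49%. Cytochrome P450 genes, whose enzymes oxidise steroids, fatty acids and drugs, had 5 of 94 in young (5.32%, 2.29% to 11.9%) and 1 in old liver (1.06%, 0.188% to 5.78%). The nearest to a start were Cyp4b1 (172 bp upstream), Cyp4f18 (396 bp downstream), Cyp3a16 (687 bp) and Cyp2c66 (731 bp) in young, and Cyp2b19 (201 bp) in old liver. Conjugation enzymes had 1 of 79 in young, Sult1c1 (1.27%, 0.224% to 6.83%), and 2 in old liver, the pseudogenes Sult2a-ps3 and Sult2a-ps4 (2.53%, 0.697% to 8.77%). Of 34 nuclear receptor genes only Hnf4g, with its peak 358 bp upstream of a start, had a young peak, and 0 had an old one. Of 40 interferon and inflammation genes only Isg15, a ubiquitin-like protein induced by interferon, had a young peak, 899 bp upstream, in a stretch of 22% GC of which 84% was soft-masked as repeat. Mrpl30 was the 1 mitochondrial ribosomal protein gene of 78, in young liver. Imprinted genes had 4 of 45 in young (8.89%, 3.51% to 20.7%) and 0 in old liver (upper bound 7.87%), so the intervals overlapped. The list was made by symbol and holds Snrpn and Ube3a but not Snhg14 or the small nucleolar RNAs of the same imprinted region on chromosome 7, where both ages had peaks. Its 4 genes with a peak were Nap1l5, Dlk1, Ddc and Grb10. The Nap1l5 peak had 67.3% GC and a CpG observed to expected ratio of 1, and the Dlk1 peak, at the gene of a Notch-related growth regulator, had 58.7% GC and a ratio of 0.776. The Ddc peak, at the gene of aromatic amino acid decarboxylase, had 60% GC and a ratio of 0. None of the 4 met a peak of the old Kap1 list or of young H3K14ac or Setdb1.

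**Figure D3:**
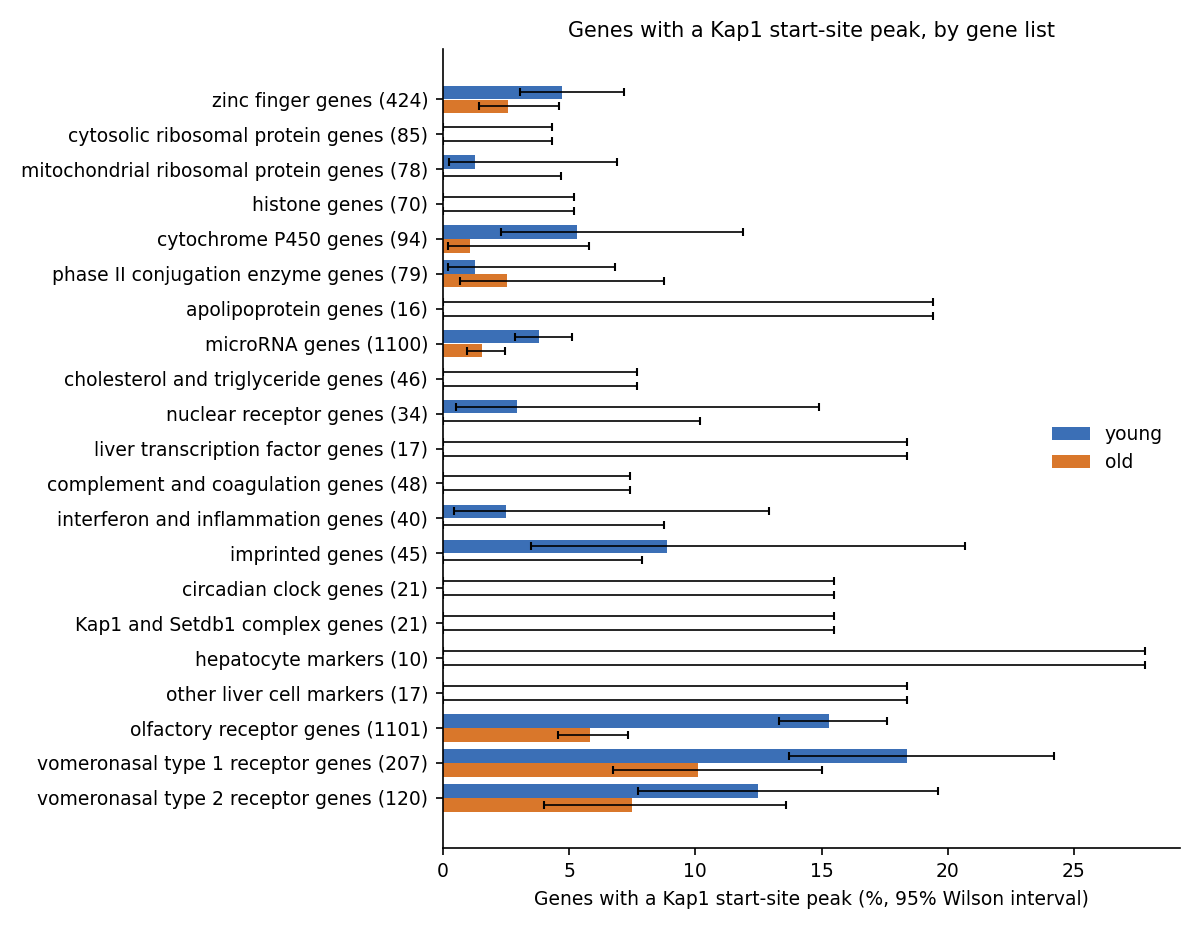
Share of genes with at least 1 Kap1 start-site peak (x axis, %) by gene list (y axis, number of genes in brackets), young in blue and old in orange, with 95% Wilson intervals as bars and an empty bar for a count of 0. The 3 chemosensory receptor lists reached 12.5% to 18.4% in young liver, and 10 lists held no gene at either age.

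Small RNA genes were counted in the same way, and the microRNA genes named here were picked for having the nearest peaks. Of 1100 named microRNA genes 42 had a young peak (3.82%, 2.84% to 5.12%) and 17 an old one (1.55%, 0.967% to 2.46%), under the background of 5.49% in young, while the old interval included the background of 2.36%. The Mir34b peak, whose sequence is printed above, had its midpoint 20 bp upstream of the hairpin's first base and 66.7% GC. Mir34b belongs to the miR-34 family, a set of targets of p53. Mir344g was covered in old liver with its midpoint 5 bp downstream. Mir6236 was among the 4 microRNA genes with the nearest peak in both lists, at chr9:110281185-110281435 in young and chr9:110281186-110281432 in old liver. The young Mir6236 peak was covered whole by an H3K14ac and by a Setdb1 peak of young liver, and the old one by an old H3K14ac peak only. The old peak at Mir6546 (chr1:171064524-171064673) shared 149 of its 150 bp with a young Kap1 peak and all of them with an old H3K14ac peak, and its sequence had 2 further copies in the genome. Small nucleolar RNA genes were at 6.66% (96 of 1442, 5.48% to 8.06%) in young and 2.64% in old liver.

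A few genes had several start-site peaks, 52 in young and 13 in old liver with 3 or more. Those named here head each list by their number of peaks, with ties taken in order of name, so other genes had equal numbers. Crxos, a homeobox gene with 4 annotated start sites, had 5 peaks in young and 2 in old liver, and its peak at chr7:15895742-15896076 lay wholly under young H3K14ac. Ccr2, the receptor of the chemokine that draws monocytes into tissue, had 4 in young and 0 in old liver, and 1 of the 4 lay under young H3K14ac. Ism2 also had 4 and 0, the long non-coding RNA 4933413J09Rik had 4 and 2, and the processed pseudogene Gm48637 had 4 and 1. Gm15056, on chromosome 8, had 4 and 1, and all 4 young peaks shared bases with old Kap1 peaks when wide peaks were counted too. The long non-coding RNA Gm21814 had 5 peaks in old and 1 in young liver. Among genes with 3 old peaks were 2610044O15Rik8, which had 2 in young liver, Gm21818, which had 1, and the processed pseudogenes AC122536.1, Gm12878 and Gm18856, which had 0. These genes were named for their counts in 1 list, so the gap between ages follows in part from the choice, the lists hold 3062 and 1259 members, and no difference was tested.

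Start-site peaks lay on all 19 chromosomes and were unevenly spread over them. Chromosome 7, which carries many olfactory and vomeronasal receptor genes, had the most in both lists, 508 young and 189 old, or 75 and 27.9 per 1000 start sites. Chromosome 12, with the immunoglobulin heavy chain locus, had 69.3 and 28.7, and chromosome 14, with the T cell receptor alpha locus, 58.5 and 26.3. Chromosome 11 had the fewest per start site at both ages, 18 and 4.38 per 1000. Narrow Kap1 peaks away from start sites were also most numerous on chromosome 7, with 4159 young and 1863 old. They were fewest on chromosome 11, with 1040 and 387. The part of this in the spread of start-site peaks was not tested. The 1 Mb bin with the most young peaks, starting at chr7:59000001, held 37 young and 15 old peaks and 237 start sites, and takes in the Snhg14 host gene and its small nucleolar RNAs, an imprinted region. The next bins held the Ighv segments from chr12:115000001 (33 young, 13 old), the Scgb1b and Scgb2b androgen-binding protein genes from chr7:33000001 (32 and 12), and vomeronasal genes from chr7:11000001 (30 and 9) and chr13:22000001 (28 and 13). In old liver the fullest bin, from chr4:147000001, was the zinc finger cluster described above, with 16 old and 24 young peaks. Another start-site peak lay within 10 kb of 936 young members (30.6%) and 273 old members (21.7%). A Kap1 peak of any width or place in the same list lay within 10 kb of 2010 young (65.6%) and 748 old members (59.4%), against 55.2% and 46.3% of narrow peaks away from start sites.

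**Figure D4:**
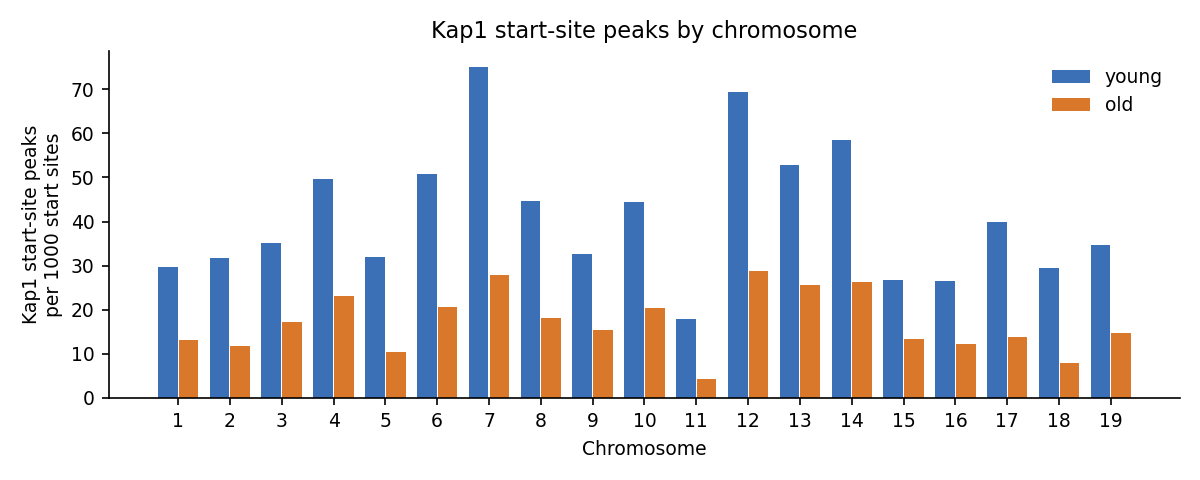
Number of Kap1 start-site peaks per 1000 distinct start sites (y axis) on each of chromosomes 1 to 19 (x axis), young in blue and old in orange. Chromosome 7 was highest in young liver at 75 and chromosome 12 in old liver at 28.7, and chromosome 11 was lowest in both at 18 and 4.38.

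Few start-site peaks of 1 age were found again in the other. A peak of the old Kap1 list, of any width, shared at least 1 bp with 248 of 3062 young members (8.1%, 7.18% to 9.12%), against 5.89% (5.67% to 6.11%) of the narrow young peaks away from start sites and 6.04% of all narrow young peaks. A young peak met 262 of 1259 old members (20.8%, 18.7% to 23.1%), against 14.1% (13.6% to 14.6%) away from start sites and 14.5% of all. Members thus had a partner more often than the rest in both lists, with intervals that did not overlap. The members with a partner differed from those without in width, since 44.8% of them in young and 43.9% in old liver were wider than 150 bp, against 10.2% and 9.13%. A second copy of the peak's sequence elsewhere in the genome, aligned over 90% of the length at 95% identity or more, was found for 18.1% (13.8% to 23.4%) of young members with a partner and 9.03% (8.02% to 10.1%) of those without, and for 20.2% and 9.53% in old liver. H3K14ac of the same age met 20.6% (16% to 26%) of the young members with a partner against 4.09% (3.42% to 4.88%) of those without, and 19.5% (15.1% to 24.7%) against 3.71% (2.7% to 5.07%) in old liver. Among peaks of exactly 150 bp, the shares with a partner of the other age were, at start sites and away from them, 5.14% (4.37% to 6.05%) against 3.74% (3.55% to 3.93%) in young and 14% (12% to 16.2%) against 9.49% (9.06% to 9.94%) in old liver. H3K14ac then met 13 of the 137 young members with a partner (9.49%, 5.63% to 15.6%) against 2.89% (2.3% to 3.62%) of those without, and 13 of 147 old ones (8.84%, 5.24% to 14.5%) against 3.2% (2.24% to 4.56%). With second copies left out the same shares were 19.7% against 4.06% in young and 18.2% against 3.77% in old liver.

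Over all members, H3K14ac was met more often than away from start sites, while the intervals of Setdb1 overlapped. In young liver an H3K14ac peak shared bases with 166 members (5.42%, 4.67% to 6.28%) against 2.99% away from start sites and 3.15% of all narrow peaks. In old liver it did with 88 members (6.99%, 5.71% to 8.53%) against 3.29% and 3.52% of all. At 150 bp the shares were 3.23% (2.62% to 3.97%) against 1.87% (1.74% to 2.01%) in young and 3.99% (2.96% to 5.35%) against 1.81% (1.62% to 2.02%) in old liver. H3K14ac itself gathers at start sites, and its part in this difference was not tested. Setdb1 met 77 young members (2.51%, 2.02% to 3.13%) against 1.93% (1.8% to 2.06%) away and 1.97% of all, and 11 old members (0.874%, 0.489% to 1.56%) against 1.04% (0.906% to 1.19%) and 1.03% of all. With second copies left out the young Setdb1 intervals did not overlap, 2.61% (2.07% to 3.27%) against 1.91% (1.78% to 2.05%) away, and the old ones did, 0.72% (0.365% to 1.41%) against 1.05% (0.911% to 1.21%). All 3 lists of an age shared a place at 5 young and 2 old members. Both old ones were at protein-coding genes, AW822073 (chr10:58225285-58225522, 474 bp upstream of the start) and Sp140 (chr1:85601065-85601214), a chromatin reader of immune cells. The AW822073 sequence had 2 further copies in old and, at its other peak printed above, 4 in young liver.

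**Figure D5:**
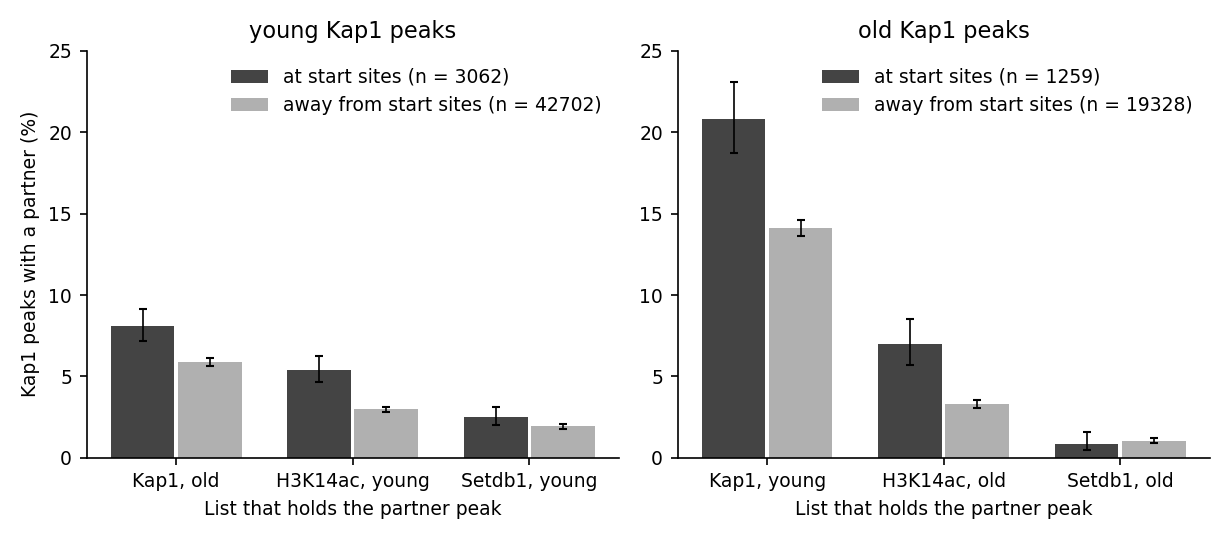
Share of narrow Kap1 peaks that shared at least 1 bp with a peak of the list named under each pair of bars (y axis, %), at start sites in dark grey and away from them in light grey, with 95% Wilson intervals, young peaks on the left and old on the right. The share with a Kap1 partner was 8.1% against 5.89% in young and 20.8% against 14.1% in old liver.

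Counted by gene within 1 kb of the start, without asking that peaks touch, Kap1 was more frequent at protein-coding genes with Setdb1 than at those without, and not so for H3K14ac. Of protein-coding genes with a young Setdb1 peak at a start, 120 of 842 had a Kap1 peak there (14.3%, 12.1% to 16.8%), against 975 of 19965 without (4.88%, 4.59% to 5.19%). In old liver these were 18 of 250 (7.2%, 4.6% to 11.1%) and 440 of 20557 (2.14%, 1.95% to 2.35%). For H3K14ac the order was the other way, 155 of 3963 protein-coding genes with the mark in young liver (3.91%, 3.35% to 4.56%) against 940 of 16844 without (5.58%, 5.24% to 5.94%). In old liver 110 of 5752 (1.91%, 1.59% to 2.3%) stood against 348 of 15055 (2.31%, 2.08% to 2.56%), with intervals that overlapped. Over genes of every type the H3K14ac order turned, 6.2% with the mark against 5.41% without in young and 2.62% against 2.31% in old liver, with intervals that overlapped at both ages. Among protein-coding genes with 1 start site, Kap1 was at 10.5% (7.56% to 14.5%) with young Setdb1 against 4.2% (3.82% to 4.61%) without, and at 2.77% (2.08% to 3.67%) with young H3K14ac against 4.71% (4.27% to 5.18%) without. In old liver only 3 of 82 such genes with Setdb1 had Kap1 (3.66%, 1.25% to 10.2%), an interval that held the 1.68% of those without.

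The protein-coding start sites where the young and old peaks overlapped numbered 81 pairs, and 38 of them (46.9%, 36.4% to 57.7%) had at least 1 of the 4 H3K14ac and Setdb1 lists within 500 bp of the young peak. The same held for 22.6% (20.4% to 25%) of all young and 30.1% (26.3% to 34.3%) of all old members at a protein-coding start, and for 14.1% and 17.1% of narrow peaks away from start sites. At least 2 of the 4 lists were near 21 of the pairs, and 3 near 4 of them. The genes that follow are examples from these 21 pairs, 9530002B09Rik with 3 lists, as at AW822073 and Sp140, and the others with 2. They were ranked by this number, so their H3K14ac is a description. Litaf had H3K14ac over the whole of its 211 bp young and 225 bp old peak, which were 38.4% and 38.2% GC and 85.8% and 81.8% soft-masked. Smok2a, a sperm motility kinase gene, had H3K14ac over the whole of both peaks as well, with 276 bp shared between the ages. The 9530002B09Rik peaks, each 150 bp wide, shared 109 bp and were covered by H3K14ac at both ages. Duxf3, a gene of the double homeobox array that is active in early embryos, shared 236 bp between its young and old peaks, and its sequence had 2 further copies. Gm10719, on chromosome 9, was 100% soft-masked, and its sequence had 31 further copies for the young and 20 for the old peak. Only unique alignments were kept, and the lists do not show how many reads of such a sequence this removed. The neighbouring genes Nit1 and Pfdn2 had a 459 bp young and a 201 bp old peak with 197 bp in common.

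The base composition of the members stood between that of other Kap1 peaks and that of 150 bp windows centred on start sites. Member midpoints lay a median of 448 bp (young) and 405 bp (old) from the nearest start, and the part of this distance was not tested. Median GC was 49.3% in young and 48.7% in old members, 46.7% in narrow peaks away from start sites at both ages, 52.7% in 150 bp around every start site and 60% around protein-coding ones. A GC of 60% or more was found in 16.5% of the young and 15.3% of the old members, against 3.72% and 3.41% away from start sites, 32.4% of the windows of every start site and 51.1% of protein-coding ones. The median CpG observed to expected ratio of members was 0.169 and 0.168, beside 0.128 and 0.125 in peaks away from start sites, 0.387 in the windows of every start site and 0.638 in protein-coding ones. For members within 500 bp of a start the median ratio was 0.203 in young and 0.198 in old liver. Over 50% of the bases were soft-masked as repeat in 13.1% and 14.2% of members, against 26.4% and 29.1% of peaks away from start sites. A second copy was found for 9.76% (8.76% to 10.9%) of young and 11.8% (10.1% to 13.7%) of old members, against 5.4% (5.19% to 5.62%) and 6.82% (6.47% to 7.18%).

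Promoter letters were counted on both strands of the 150 bp peaks and of the 150 bp around every start site. The Sp1 box GGGCGG was in 6.61% (5.72% to 7.61%) of young and 6.17% (4.87% to 7.79%) of old members, in 1.82% and 1.71% of peaks away from start sites, in 22.3% of all start windows and in 35.1% of protein-coding ones. The ETS letters CCGGAAG were in 1.05% (0.728% to 1.51%) of young and 1.14% (0.653% to 1.98%) of old members, in 0.605% (0.533% to 0.687%) and 0.527% (0.429% to 0.646%) of peaks away from start sites and in 5.16% of start windows. The core ATCAAT of Onecut factors, the family of the liver factor HNF6, was in 5.33% (4.54% to 6.25%) of young and 5.51% (4.28% to 7.05%) of old members, in 6.63% and 6.82% of peaks away from start sites and in 3.81% of start windows. The CCAAT letters were in 20.2% (18.7% to 21.7%) of young and 19.9% (17.6% to 22.5%) of old members, in 23.1% (22.7% to 23.5%) and 22.8% (22.2% to 23.5%) of peaks away from start sites and in 20.1% of start windows. The TATA letters TATAAA were in 6.42% (5.55% to 7.41%) of young and 7.5% (6.06% to 9.25%) of old members. Away from start sites they were in 8.04% (7.78% to 8.32%) and 8.21% (7.81% to 8.63%) of peaks, and in 6.93% of start windows. Letters for NRF1, E-box, CRE, YY1 and Zbtb33 were also counted and are not listed here. A match is a string of letters and not a bound site. The parts of base composition and of distance from the start in these shares were not tested.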

How the data were processed

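The deposited peak lists used here hold coordinates alone, 1 list per mark and age, without counts or scores, so they do not give the depth behind a peak. Per the labels and methods, the authors aligned reads to mm10 with BWA, removed duplicates with Picard, kept unique alignments, pooled livers by age and used PeakSeq, with input chromatin as control, to call peaks. The members, gene lists and questions were chosen with earlier results of these data known. Start sites were those of 75763 transcripts (72109 positions, 51229 genes) of GENCODE vM21 basic on chromosomes 1 to 19, and sequence came from GRCm38.p6. A partner was any peak sharing at least 1 bp. Counts made from the lists were checked against bedtools 2.31.1 (60 of 60 equal) and tested on simulated data (400 of 400 distances and 500 of 500 overlaps recovered). Second copies were sought with minimap2 2.31, which found 50 of 50 simulated copies at 2% divergence and 0 of 50 at 15%. Genes were named by fixed rules: kept protein-coding sites with the most H3K14ac and Setdb1 lists within 500 bp, genes with the most peaks (ties by name), sites of all 3 lists of an age, the nearest 4 genes per list, and all complex and marker genes. Lists were matched by symbol, with 2 complex, 3 complement and 1 nuclear receptor symbols not matched. Python 3.11.15, pysam 0.24.0, samtools 1.23.1 and matplotlib 3.10.9 were used. The alternatives were 500 or 2000 bp to a start, midpoints, protein-coding starts, 150 bp peaks, no second copies, a 50% overlap and a 500 bp gap.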

Additional observations from a re-analysis of the deposited data

How the results depend on the processing

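Of 60 counts and shares of partners recomputed under 8 alternatives, 38 stayed near their value and 22 moved, in part by construction. A count moved when it differed by over 1.5 times, a share when it left the 95% Wilson interval of the reported value, and a median when it shifted by over 1 SD over peaks. The numbers of members were 1885 young and 819 old within 500 bp of a start, 5157 and 2202 within 2000 bp, and 1275 and 498 at protein-coding starts, where young Setdb1 met 1.88% and old H3K14ac 10.6%. For peaks of exactly 150 bp the Kap1 partner shares were 5.14% (young) and 14% (old) and those of H3K14ac 3.23% and 3.99%. A partner covering 50% of the peak left 5.42% and 14.9% for Kap1, 4.64% for young H3K14ac and 1.7% for young Setdb1. With a gap of 500 bp allowed they were 14.6% and 32.2% for Kap1, 9.14% and 11.2% for H3K14ac, and 5.45% and 1.99% for Setdb1. Of 56 other values, 8 moved and 48 did not. The values of peaks away from start sites and of members with and without a partner, at 150 bp or without second copies, and those of genes with 1 start site were chosen after seeing the data. Of the 20 added values at 150 bp or without second copies, 11 moved and 9 did not. No paired analysis was possible because each age has 1 merged list and no test was run. With no heights or reads per peak, the lists cannot show whether a site missing from a list was unbound or under the calling threshold.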
